A study of Mus musculus with 9 samples.

Results

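Transcripts of the proteins that build the cytosolic ribosome were followed in colonic CD4+ T cells after T cell transfer colitis. Members were the rows of the deposited table whose symbols carry the names of cytosolic ribosomal proteins, from the RPL, RPLP, RPS and RPSA series without the RPS6K kinases. The choice by name gave 82 of 23415 rows, with 50 of the large and 32 of the small subunit. A few ribosomal proteins with other names, such as Rps3a1 and Fau, fall outside it and are given separately.

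The donors of the knockout group lacked CD160, an immunoglobulin-family receptor of lymphocytes, and the donors of the control group were their wildtype littermates. From both, naive CD4+CD25-CD45RBhigh T cells were injected into Rag1-/- mice, which have no T or B cells of their own, and CD4+ T cells of the colonic lamina propria were sorted when disease was at its height. There were 4 knockout and 5 control libraries, made with a modified SMART-Seq2 protocol for full-length cDNA. The labels give no age and do not say whether recipients differed from library to library, so the spread that the p-values measure may be technical. The values are TPM, transcript abundances scaled to a common total, which correct for transcript length and library total and keep no depth, so the counting error behind a value is unknown.

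The cytosolic ribosome has a small subunit, which reads the messenger RNA, and a large subunit, which joins the amino acids. Each ribosome holds about the same number of nearly every ribosomal protein, and the transcripts of these genes are among the most abundant of a lymphocyte. Most of them begin with a 5′ terminal oligopyrimidine tract, a stretch of C and T starting with C, through which the mTORC1 kinase and LARP1 set their translation when a T cell is activated.

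Control replicate 1 differed from the other libraries and is treated apart throughout. In it 7308 genes reached 1 TPM, against 11088 to 11711 in the others. Cd160 itself stood between 5.44 and 18.8 TPM in knockout and between 31.8 and 212.4 TPM in control libraries. An entry for the fluorescent reporter tdTomato was at 2.52 to 8.78 TPM in the controls and listed at 0 in each of the 4 knockout libraries. The groups therefore differed in this entry as well as in Cd160, and the comparison cannot tell these apart. All 12 markers of CD4 T cells were detected, and together they summed to 5130 to 6726 TPM in knockout libraries, 6221 to 7232 TPM in control replicates 2 to 5 and 1989 TPM in control replicate 1. Macrophage transcripts were present too, in unequal amounts: 12 markers summed to 12801 to 30255 TPM in knockout libraries, 4657 to 18473 TPM in control replicates 2 to 5 and 1509 TPM in control replicate 1, and none of them was at 0.

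The transcription starts of members that stood at the upper and lower ends of control replicate 1 are shown because this is where the pyrimidine tract of ribosomal protein messages lies. RefSeq promoters (GRCm38.p6) were found for 61 of the 82 members. Each line gives 15 bases before the start site and 15 from it, 5′ to 3′ on the gene's strand, and capitals mark a run of at least 5 C or T that begins with C within 10 bases of the start. The first 4 genes had the highest levels in control replicate 1 relative to the other controls among tested members with a promoter, and the last 4 had the lowest.
Rps27 (chr3:90213634-90213663, minus strand): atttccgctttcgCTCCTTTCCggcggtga
Rps28 (chr17:33824548-33824577, minus strand): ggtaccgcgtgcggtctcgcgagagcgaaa
Rpl41 (chr10:128549154-128549183, minus strand): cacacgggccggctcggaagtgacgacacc
Rplp2 (chr7:141447636-141447665, plus strand): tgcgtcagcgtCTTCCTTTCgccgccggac
Rpl4 (chr9:64173372-64173401, plus strand): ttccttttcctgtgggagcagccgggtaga
Rps6 (chr4:86857353-86857382, minus strand): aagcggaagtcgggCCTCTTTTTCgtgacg
Rps4x (chrX:102189377-102189406, minus strand): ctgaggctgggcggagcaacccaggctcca
Rpl6 (chr5:121204486-121204515, plus strand): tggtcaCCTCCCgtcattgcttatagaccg
Rps27 and Rplp2 of the first set and Rps6 and Rpl6 of the second carried such a run near the listed start. Among all promoters of the members, 41 of 73 (56.2%) held one, against 30.7% of 32851 promoters in the table. With the run starting within 2 bases of the start site, the shares were 31.5% and 8.96%. Of the tested members with a promoter, a run was present in 22 of 33 that were higher in control replicate 1 than in the mean of the other controls and in 14 of 25 that were lower. A match describes these letters at the listed start only.

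Apart from control replicate 1, the ribosomal protein transcripts took between 21.7% and 24.1% of the TPM of every library. Their share of all TPM was 23.8%, 21.8%, 21.8% and 21.7% in knockout replicates 1 to 4. It was 38.7%, 24.0%, 23.6%, 24.1% and 22.7% in control replicates 1 to 5. The knockout libraries averaged 22.3% ± 1.00 (SD, n = 4) and control replicates 2 to 5 averaged 23.6% ± 0.647 (SD, n = 4), a difference of -1.32 percentage points with overlapping libraries. Knockout replicate 1 lay with the controls, and the other knockout libraries lay below each of control replicates 2 to 5. With control replicate 1 included the control mean was 26.6% ± 6.79 (SD, n = 5), and the difference was -4.35 percentage points.

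Large subunit transcripts summed to 1.30 ± 0.0405 (SD, n = 4) times the TPM of small subunit transcripts in knockout libraries and 1.29 ± 0.0244 (SD, n = 4) times in control replicates 2 to 5. In control replicate 1 the ratio was 1.13, below each of the other 8 libraries, which ran from 1.25 to 1.35. On the mean log2(TPM + 1) of the tested members, large minus small subunit was 0.0074 ± 0.049 in knockout libraries and 0.052 ± 0.027 in control replicates 2 to 5 (SD, n = 4 each). The difference between the groups, -0.045, was smaller than the SD within knockout libraries and larger than that within control replicates 2 to 5, and the groups overlapped. It was -0.013 without Rpl32l and Rps4l, whose levels were under 20 TPM in every library and weigh on a mean of logs.

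**Figure D1:**
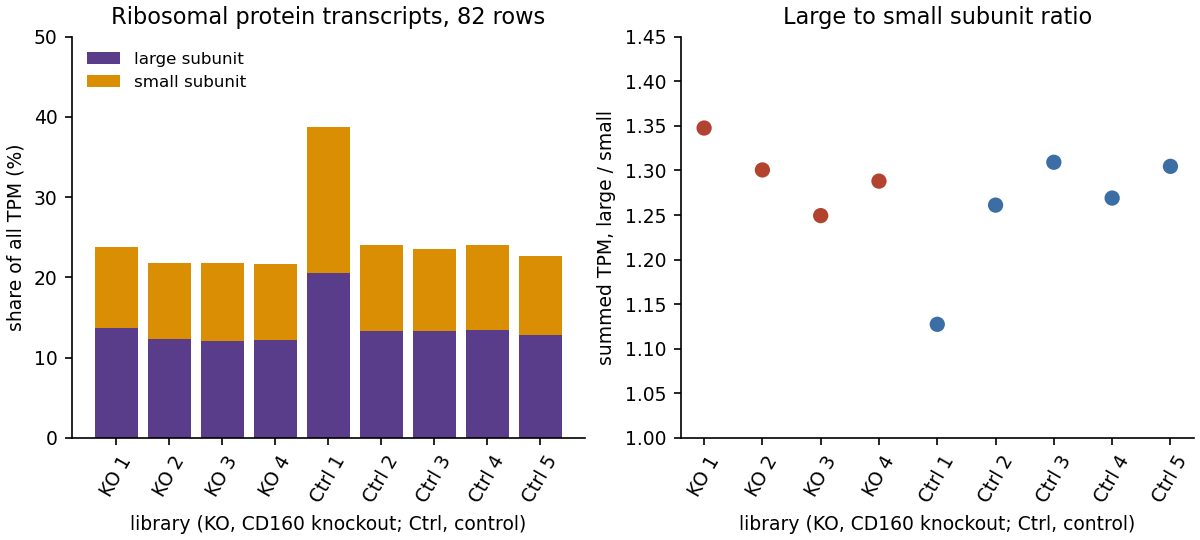
Left, share of all TPM (%) taken by large and small subunit transcripts in each of the 9 libraries; right, the ratio of summed large to summed small subunit TPM, with the vertical axis starting at 1. Control replicate 1 stands at 38.7% with a ratio of 1.13, and the other libraries at 21.7% to 24.1% with ratios of 1.25 to 1.35.

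The most abundant members were small subunit Rps27, a zinc-finger protein, and large subunit Rpl41, a very short peptide. Over the 8 libraries other than control replicate 1, Rps27 averaged 11854 TPM and Rpl41 averaged 9137 TPM. Rps27 values were 11038, 10830, 12812 and 10603 TPM for knockout replicates 1 to 4, and 46799, 13205, 11757, 12876 and 11711 TPM for control replicates 1 to 5. Control replicate 1 alone was far above the rest. Rps27 shares 98.7% of its 38-base words, the length of 1 read, with the retrogene Rps27rt, so how its reads were divided is uncertain. Many members share words with other genes: 34 of 82 share over 50% with another annotated gene. Among them are Rpl36 (89.9%), Rpl3 (86.6%), Rps6 (84.8%) and Rps4x (76.9%). Those named share 0.107% or less with a gene that has a row in the table. Whether copies without a row took part of their reads is unknown. With a gene of the table itself, 17 members share 10% or more, among them Rpl34 (41.2%), Rplp2 (34.2%) and Rpl30 (32.2%), and 49 share none. Apart from Rpl32l and Rps4l, which averaged 5.31 and 4.78 TPM, and the 3 members below, the lowest was Rpl22. Rpl22, an RNA-binding protein needed for the development of alpha-beta T cells, averaged 160.5 TPM and its paralog Rpl22l1, outside the chosen names, stood at 583.7 to 810.3 TPM in the same libraries. Only 3 members were near absence: Rpl10l, a paralog known from the testis, was listed at 0 in 8 libraries and at 0.08 TPM in control replicate 5. Rpl39l, also known from male germ cells, ran from 0.22 to 0.65 TPM, and Rpl3l, the muscle paralog, reached 1.31 TPM in control replicate 1 and at most 0.11 TPM elsewhere. These 3 failed the filter of 1 TPM in at least 4 libraries, so 79 members were tested, 47 large and 32 small.

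Within a group the members varied little. Without control replicate 1, the median coefficient of variation within groups was 6.47% for the 72 members at 500 TPM or more and 9.84% for the 230 other genes at that level. The lowest was 2.36% for Rpl23a, which contacts the nascent chain at the exit tunnel, and among members over 500 TPM the highest was 27.2% for Rps2, a protein of the messenger entry channel. Across these 8 libraries the log2 levels of 61 of the 79 members correlated with the mean of all members above 0.5 (Pearson, 8 libraries that share scaling and total). Each member is itself part of that mean, and the share of other genes above 0.5 is not given here. The highest member was Rpl29 at 0.92 and the lowest was Rps2 at -0.59. By the same measure, the genes outside the members that were most like their mean were the adhesion molecule Icam2 (0.94), the centrosomal protein gene Ssna1 (0.93) and 3 isoleucine transfer RNA entries with identical values (0.91). These are the highest values of a search over the other genes in only 8 libraries, and they were not tested.

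In control replicate 1 the members parted by length. Relative to the mean of control replicates 2 to 5, 48 of the 79 tested members were higher and 31 lower there, from 0.0782-fold for Rpl4 to 4.77-fold for Rpl36. At least a 2-fold higher level was seen for 18 members, with a median coding length of 345 nt without Rpl32l, which has no coding length. At most 0.5 times the level was seen for 15 members, with a median of 798 nt. Rpl36, a large subunit protein, stood at 12002 TPM in this library, where the other controls had 2317 to 2718 TPM. Rpl4, which lines the peptide exit tunnel, stood at 185.9 TPM against 2269 to 2538 TPM. Rpl3, of the peptidyl transferase region, was at 284.7 TPM against 2842 to 3036 TPM. Rps6, the substrate of S6 kinase, was at 287.5 TPM against 2071 to 2159 TPM. In all 4 genes this library lay far outside the range of the other controls.

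By bins of coding length, the median log2 difference of control replicate 1 from the other controls went from 1.29 under 300 nt, where 10 of 10 members were higher, to -1.90 at 700 nt or more, where 1 of 13 was higher. Between these lay 0.77 from 300 nt, 0.59 from 400 nt and -0.34 from 500 nt up to the last bin. Over the 77 tested members with a coding length, Pearson's r between the log2 of that length and the difference was -0.74 and Spearman's rho was -0.72, over genes of one library that share its depth and scaling. The 215 other genes at 500 TPM or more gave -0.81 and -0.82, and all 11047 other genes gave -0.23 and -0.19. Of the other genes under 300 nt, 123 of 276 were higher in this library, and of those at 500 TPM or more 38 of 42 were. The 1 long member that was higher was Rpl5, which carries 5S RNA into the large subunit. It stood at 3766 TPM against 1342 to 1485 TPM in the other controls. Among members under 400 nt with a coding length, Rps25 and Rps24 were lower there, at 0.541 and 0.863 times the mean of the other controls.

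**Figure D2:**
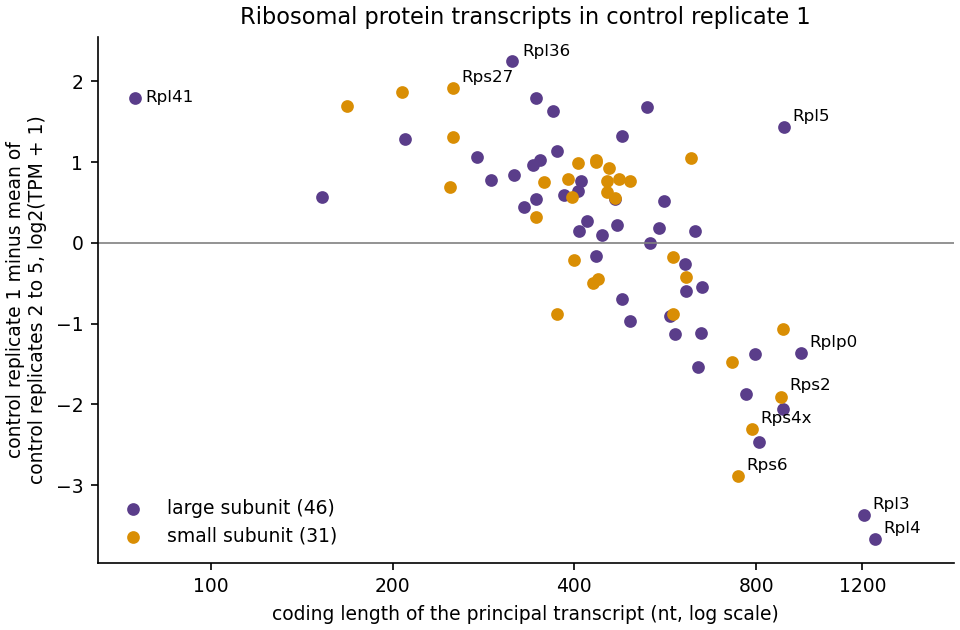
Log2(TPM + 1) in control replicate 1 minus the mean of control replicates 2 to 5 (vertical) against coding length in nt on a log axis (horizontal), 1 point per tested member with a coding length (46 large, 31 small subunit). Members under 300 nt lie above the line at 0, and those from 300 nt to under 400 nt do except Rps25 and Rps24. Members of 700 nt or more lie below it except Rpl5, and Rpl3 and Rpl4 are the lowest.

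A weaker slope on length was seen in some of the other libraries. Relative to control replicates 2 to 5, the difference of knockout replicates 1 and 2 correlated with length at r = 0.56 and 0.61 over the 77 members, and that of knockout replicates 3 and 4 at -0.020 and 0.052. Control replicates 2 to 5, each against the remaining 3, gave -0.34, 0.45, -0.14 and 0.25. Over the 215 other genes at 500 TPM or more, knockout replicates 1 and 2 gave 0.15 and 0.27. The rest, apart from control replicate 1, ran from -0.059 to 0.093 over those genes. The number of members more than 2-fold from the other controls was 33 in control replicate 1 and 0 to 2 in every other library.

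The comparison between the groups asks whether loss of CD160 in the transferred cells goes with altered levels of these transcripts. A difference is the limma estimate of log2(TPM + 1) in knockout minus that in control libraries, with p-values adjusted over all genes tested by the Benjamini-Hochberg method. No member passed an adjusted p of 0.05, with or without control replicate 1, while 0.0174% of all 11495 genes passed with it and 0.0262% of 11457 without it. Adjusted p-values of members ran from 0.595 to 0.989 with 9 libraries and from 0.113 upward with 8. At an unadjusted p under 0.05, 2 members were higher and 2 lower with 9 libraries, where 5.78% of all genes were higher and 0.618% lower.

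Without control replicate 1, where the spread is smaller, more members lay below the controls than above. Of the 79 tested, 64 had a negative difference and 15 a positive one, against 52.5% negative among all genes. At an unadjusted p under 0.05 there were 16 members with lower values, 11 of the large and 5 of the small subunit, or 20.3% of those tested, where 4.41% of all genes were lower. The 2 with higher values, Rps4l and Rps2, compare with 8.44% of all genes. Other abundant genes had a share near that of the members: of the 230 other genes at 500 TPM or more, 18.7% were lower at that threshold, against 20.8% of the 72 members at that level. In those 2 sets 64.8% and 83.3% of the differences were negative, with medians of -0.069 and -0.081. The median difference of all tested members was -0.068, that of the large subunit -0.061 and that of the small subunit -0.089, and over all genes it was -0.014. Without knockout replicate 1 the median of the members was -0.12. In the 8 libraries the difference also went with coding length, with r = 0.34 and rho = 0.38 over the 77 members, and with medians of -0.13 under 300 nt and -0.0051 at 700 nt or more. Over the 215 other genes at 500 TPM or more, r was 0.14 and rho 0.27, with medians of -0.15 and 0.0027 in these bins. Over 11031 other genes of any level, r was 0.022 and rho 0.015. The part of length in the lower values was not tested. In the same fit the 12 markers of CD4 T cells had a median difference of -0.21, with 11 negative, and the 12 macrophage markers one of 1.33, with 12 positive. The part of the cell mixture in the members' values was not tested, and in these bulk samples fewer cells of a type and less RNA per cell cannot be told apart.

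With all 9 libraries the median difference of the members was -0.17, when that of all genes was 0.46, so relative to all genes the members stood at -0.62. This relative value was -0.054 without control replicate 1, and it ran from -0.12 without knockout replicate 1 as well to 0.002 without control replicate 2 as well. With that library, 55 of 79 members had a negative difference, against 13.3% of all genes. The values of long members turned on this library: with 9 libraries Rpl4 was at 0.78 and Rpl3 at 0.74, and with 8 they were at 0.044 and 0.063, each below its standard error. Rps6 went from 0.57 to -0.0051.

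**Figure D3:**
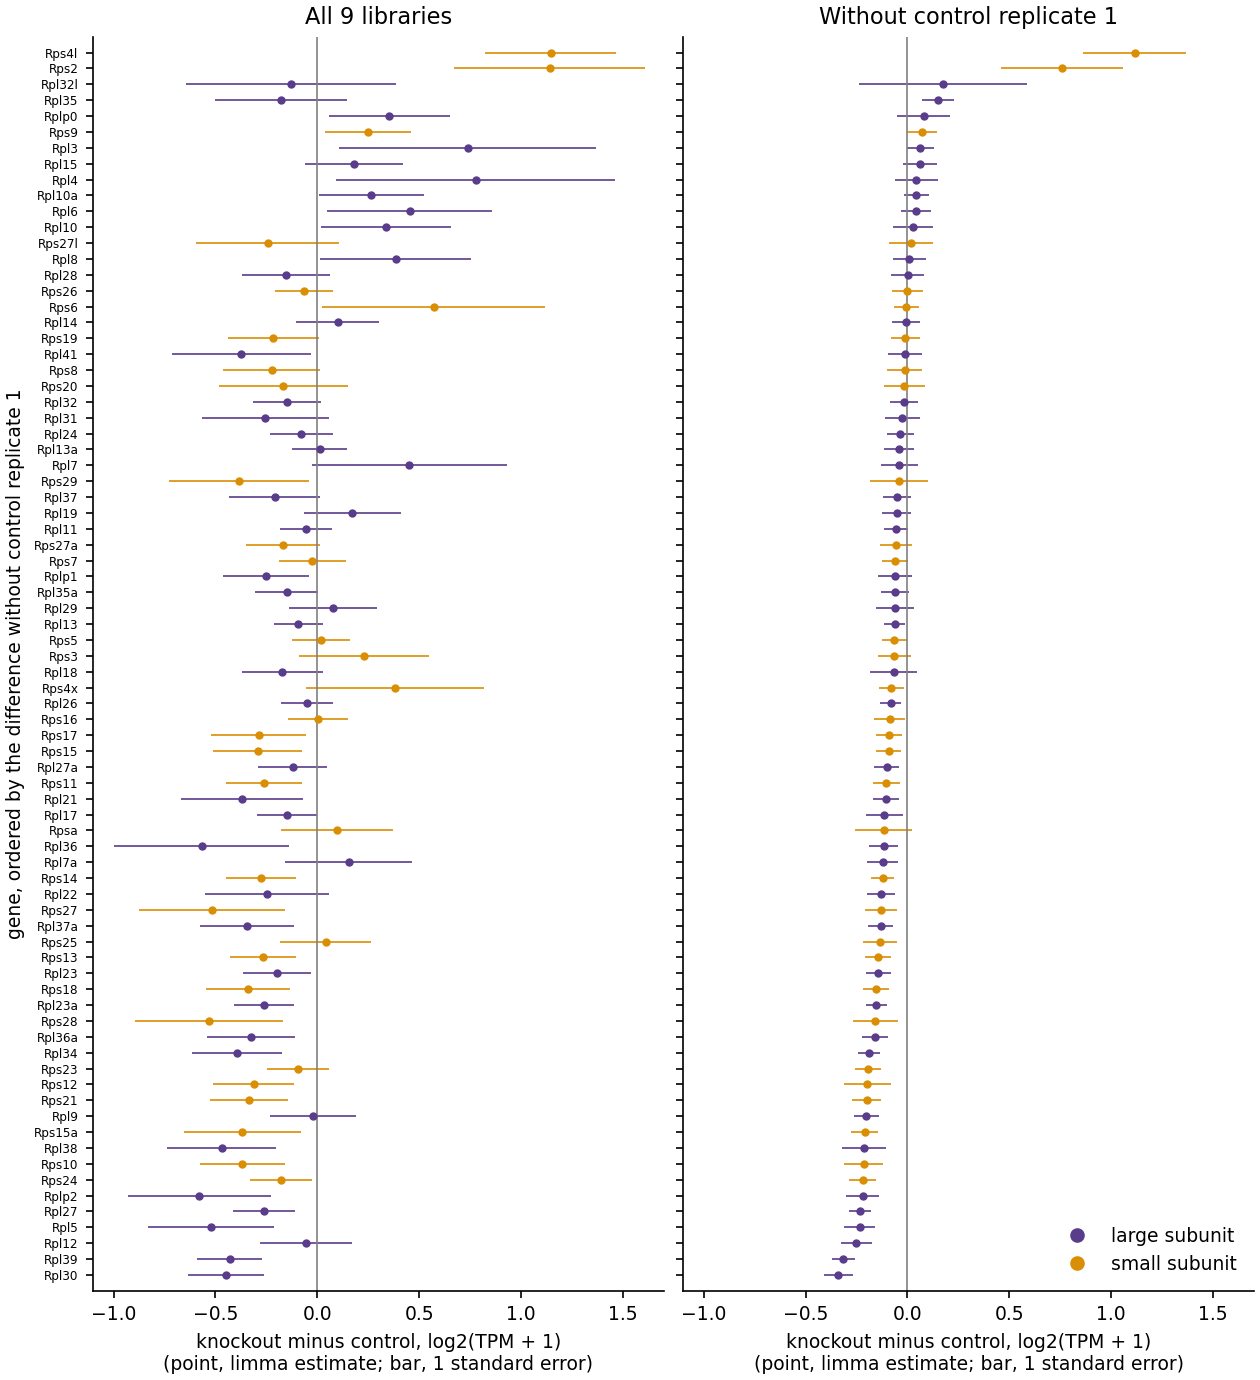
Knockout minus control difference on the log2(TPM + 1) scale for 78 of the 79 tested members, from limma with all 9 libraries (left) and without control replicate 1 (right); points are estimates and bars 1 standard error, genes in the same order in both panels. Without that library most points lie just below 0 with short bars, and Rps4l and Rps2 stand apart at 1.11 and 0.76.

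Rps4l gave the largest positive difference among the members. It is an autosomal relative of Rps4x, a small subunit protein encoded on the X chromosome, and lies at chr6:148354656-148355596 (GRCm38), where RefSeq describes it as a transcribed pseudogene. Rps4l values were 5.64, 8.24, 5.04 and 8.58 TPM for knockout replicates 1 to 4, and 2.20, 3.62, 1.44, 3.42 and 2.24 TPM for control replicates 1 to 5. Every knockout library was above every control library, as for 3.88% of all genes (4.01% without control replicate 1), and control replicate 1 lay within the other controls. Knockout libraries averaged 6.88 ± 1.79 TPM (SD, n = 4) and controls averaged 2.58 ± 0.915 TPM (SD, n = 5). The log2 difference was 1.15 ± 0.32 (SE) with an adjusted p of 0.595 in limma, and without control replicate 1 the difference was 1.11 ± 0.25 (SE) with an adjusted p of 0.141. An exact permutation test, two-sided, gave p = 0.00794 with 9 libraries and 0.0286 with 8, the smallest that the splits allow. Rpl39, Rpl30 and Rpl27, which were lower in knockout libraries, gave the same p-values in this test, so it does not set Rps4l apart from them. These p-values are not adjusted, and Rps4l was named for its small p. Rps4l shares 0.11% of its 38-base words with Rps4x, and 20.8% with any gene of the annotation.

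Its X-linked counterpart did not follow it. Rps4x (chrX:102184941-102189391) stood at 4051, 4042, 3740 and 3607 TPM in the knockout group and 820.3, 4153, 4168, 4067 and 3913 TPM in the control group. The groups overlapped, and control replicate 1 was the lowest of all. The difference was 0.38 with 9 libraries and -0.080 ± 0.061 (SE) with 8, where the adjusted p in limma was 0.649.

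Rps2 (chr17:24718121-24721927) had the other high value. Its values were 961.6, 1199, 1489 and 1609 TPM for knockout replicates 1 to 4, and 202.5, 397.7, 933.4, 1050 and 857.8 TPM for control replicates 1 to 5. Knockout replicate 1 lay below control replicate 4, so the groups overlapped, and both groups were wide. The difference was 1.14 ± 0.47 (SE) with 9 libraries and 0.76 ± 0.30 (SE) with 8, with adjusted p-values of 0.714 and 0.327 in limma. Of its 38-base words 75.0% occur in other annotated genes, and 18.3% in another gene of the table. How its shared reads were divided is uncertain, and whether this goes with its values was not tested.

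Of the members with lower values, Rpl39, Rpl30 and Rpl27 had the smallest p-values among the 8 libraries, followed by Rpl34. Rpl39 (chrX:37082518-37085222), a short protein at the exit tunnel, stood at 3085, 3353, 3379 and 3274 TPM in the knockout group and 6029, 4269, 4016, 3992 and 4014 TPM in the control group. All knockout libraries lay below all controls, and the spread within control replicates 2 to 5 was small. The knockout mean was 80.4% of that of control replicates 2 to 5, with 3273 ± 132.8 TPM against 4073 ± 131.3 TPM (SD, n = 4 each). The difference was -0.32 ± 0.057 (SE), with an adjusted p of 0.113 in limma, and with 9 libraries it was -0.43 with an adjusted p of 0.668.

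Rpl30 (chr15:34440505-34443276), a large subunit protein at the interface of the subunits, stood at 1605, 1746, 1445 and 1553 TPM in the knockout group and 2929, 2009, 2142, 1968 and 1901 TPM in the control group. The groups did not overlap, and the knockout mean was 79.2% of that of control replicates 2 to 5. The difference was -0.34 ± 0.073 (SE), with an adjusted p of 0.131 in limma. Rpl27 (chr11:101442245-101445596), also of the large subunit, stood at 1897, 1838, 1857 and 1830 TPM in the knockout group and 2407, 2139, 2285, 2103 and 2203 TPM in the control group. Here control replicate 1 was only just the highest, and the knockout libraries lay close together, below every control. Its difference was -0.23 ± 0.053 (SE) without that library and -0.26 with it, with adjusted p-values of 0.141 and 0.745 in limma. Rpl34 (chr3:130726827-130730398) stood at 3548, 3466, 3366 and 3322 TPM in the knockout group and 7952, 3864, 3891, 4054 and 3822 TPM in the control group, a difference of -0.19 ± 0.053 (SE) without control replicate 1 with an adjusted p of 0.185. With 9 libraries, Rpl23a, Rpl27, Rpl30, Rpl34, Rpl39, Rpl5, Rplp2, Rps14 and Rps15a were below every control in every knockout library, 9 members of 79, where 1.05% of all genes were. Without control replicate 1, 14 members were, where 3.01% of all genes were. At 500 TPM or more it was 18.1% of the members and 13.0% of the other genes.

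**Figure D4:**
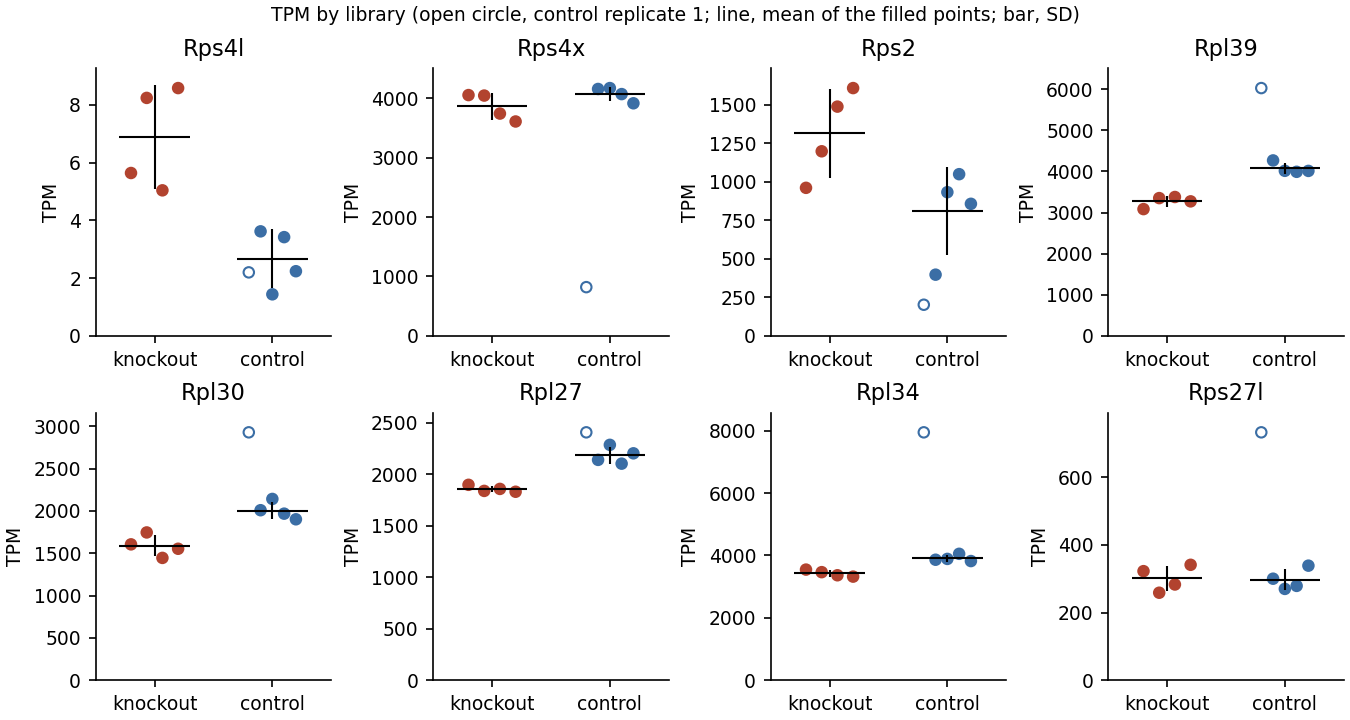
TPM of 8 members in each library, with its own vertical axis from 0 in each panel; control replicate 1 is an open circle, lines are means of the filled points and bars their SD. Knockout libraries lie above all controls for Rps4l and below all controls for Rpl39, Rpl30, Rpl27 and Rpl34, and overlap them for Rps4x, Rps2 and Rps27l.

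None of the P stalk, a set of acidic proteins that recruits elongation factors to the large subunit, passed the threshold. Its base Rplp0 stood at 5005, 3636, 3157 and 3503 TPM in the knockout group and 1381, 3412, 3711, 3422 and 3716 TPM in the control group, so knockout replicate 1 was the highest of all. Its difference without control replicate 1 was 0.081 ± 0.13 (SE). Rplp2 stood at 3331, 2877, 2765 and 3164 TPM in the knockout group and 12232, 3409, 3875, 3469 and 3369 TPM in the control group, with no overlap and a difference of -0.22 ± 0.079 (SE). Rplp1 had -0.060 ± 0.083 (SE) and overlapped. The adjusted p-values of the 3 genes in limma were 0.870, 0.291 and 0.840.

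Rpl5 and Rpl11 form a particle with 5S RNA that, when free, binds MDM2 and so touches on p53. Rpl5 (chr5:107900508-107909005) stood at 1289, 1262, 1073 and 1133 TPM in the knockout group and 3766, 1411, 1485, 1342 and 1349 TPM in the control group, without overlap. Its difference was -0.23 ± 0.076 (SE) without control replicate 1, with an adjusted p of 0.245 in limma. Rpl11 stood at 3590, 3414, 3267 and 3194 TPM in the knockout group and 3493, 3467, 3510, 3591 and 3405 TPM in the control group, where control replicate 1 was in the middle of its group. Its difference was -0.055 ± 0.058 (SE). In the list of p53 responses to ribosomal stress, 11 of 14 tested genes had a positive and 3 a negative difference without control replicate 1, and none passed. Over all genes in that fit, 52.5% of the differences were negative. The gene of this list with the smallest p was Cdkn1a, a cell cycle inhibitor, which averaged 71.2 ± 31.4 TPM in the knockout group and 44.9 ± 13.0 TPM over control replicates 2 to 5 (SD, n = 4 each). Its unadjusted p in limma was 0.0894. Knockout replicate 1 was the highest at 115.1 TPM, where the other knockout libraries had 43.5 to 71.0 TPM.

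Several members are known for roles outside the ribosome or for T cell or blood phenotypes, and their values without control replicate 1 lay near those of the whole set. Rpl22 stood at 152.7, 154.1, 143.4 and 162.7 TPM in the knockout group and 168.9, 174.2, 167.0 and 160.9 TPM in control replicates 2 to 5, with overlap in 1 library of each group and a difference of -0.13 ± 0.068 (SE). Rpl38, linked to the translation of Hox transcripts, had -0.21 ± 0.11 (SE), and Rps14, deleted in the 5q- syndrome, had -0.12 ± 0.057 (SE) with no overlap. Rpl13a, part of the interferon-gamma-activated inhibitor of translation complex, had -0.040 ± 0.074, Rps3, also a subunit of NF-kappaB complexes, had -0.065 ± 0.082, and Rps19, the gene most often mutated in Diamond-Blackfan anaemia, had -0.011 ± 0.072 (SE). Rpsa, also a laminin receptor, stood at 2064, 1601, 1238 and 1486 TPM in the knockout group and 1612, 1829, 1708 and 1671 TPM in control replicates 2 to 5, so the knockout group spanned the controls, with a difference of -0.12 ± 0.14 (SE). Rps27a, made as a fusion with ubiquitin, had -0.056 ± 0.080 (SE). The adjusted p-values of these 8 genes in limma ran from 0.415 to 0.975.

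The remaining paralog pairs gave no separation. Rps27l, a p53 target close in sequence to Rps27, stood at 322.5, 258.6, 283.0 and 341.2 TPM in the knockout group and 733.1, 300.1, 270.0, 278.9 and 338.7 TPM in the control group. Its difference was -0.24 with 9 libraries and 0.018 with 8, and that of Rps27 was -0.52 and -0.13. Rpl10, whose paralog Rpl10l was nearly absent, had 0.34 and 0.027. Other members were named because few had a positive difference, so theirs were among the smallest p-values of that direction. Of these, Rpl35 had -0.18 with 9 libraries and 0.15 ± 0.079 (SE) with 8. Rps9 had 0.25 and 0.072 ± 0.075 (SE). The unadjusted p-values of Rpl35 and Rps9 in limma were 0.0914 or more. Of the abundant members, Rpl41, Rps28, Rps29, Rps13 and Rpl23a had differences of -0.013, -0.16, -0.043, -0.14 and -0.15 without control replicate 1. All had adjusted p-values of 0.261 or more in limma.

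Genes related to ribosomal proteins but outside the chosen names were looked at as a list of 8 tested genes, with fusions, paralogs, the pseudogenes Rpl31-ps12 and Rpl34-ps1 and the binding protein Rps19bp1. Without control replicate 1, Rpl7l1 (0.057) and Rps19bp1 (0.094) had a positive difference and the other 6 a negative one, with a median of -0.14 and none past the threshold. Fau, a fusion of a ubiquitin-like protein with Rps30, stood at 7636, 6374, 6820 and 6408 TPM in the knockout group and 6936, 6803, 6603, 7228 and 6716 TPM in the control group. The groups overlapped, and control replicate 1 lay within the other libraries. Rpl36al, a paralog of Rpl36a, had the smallest p of the list, with -0.17 ± 0.067 (SE) and an adjusted p of 0.335. Rps3a1, a small subunit protein that is not in that list, stood at 583.3 TPM in control replicate 1 and at 2296 to 2885 TPM in the other libraries.

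The rest of the pathway was read from lists chosen with earlier results known, and no gene passed in either direction in any of them, with or without control replicate 1. Without that library, the translation factors had 12 positive and 16 negative differences among 28 tested genes, with a median of -0.018. Over all genes in that fit, 52.5% of the differences were negative and the median was -0.014. Eef1a1, the elongation factor that brings transfer RNA to the ribosome, averaged 6535 ± 967.3 TPM in the knockout group and 6472 ± 549.4 TPM over control replicates 2 to 5 (SD, n = 4 each), and stood at 270.8 TPM in control replicate 1. Tpt1, another message with a pyrimidine tract, had -0.24 ± 0.10 (SE) with an adjusted p of 0.353. The ribosome biogenesis list had 23 positive and 40 negative differences among 63 genes, with a median of -0.027. Its smallest p-values belonged to Nip7, a large subunit assembly factor, at -0.28 and Nop10, of the pseudouridylation complex, at -0.30, with adjusted p-values of 0.270 and 0.317.

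RNA polymerases I and III, which make ribosomal, 5S and transfer RNA, had 8 positive and 27 negative differences among 35 genes, with a median of -0.084. Among all genes 52.5% of the differences were negative. Znrd1, a subunit of polymerase I, had -0.32 ± 0.099 (SE) with an adjusted p of 0.217, and Taf1b, of the factor that places polymerase I on its promoter, had -0.30. The regulators mTORC1, MYC and LARP1 with their partners had 11 positive and 11 negative differences among 22 genes, with a median of 0.0036. In that list Rheb, the activator of mTORC1, had 0.25 ± 0.088 (SE) with an adjusted p of 0.282. Myc stood at 32.8, 27.0, 26.8 and 24.1 TPM in the knockout group and 1.95, 23.5, 30.1, 25.4 and 23.2 TPM in the control group, so control replicate 1 alone was far below the rest. Of 18 small nucleolar RNA hosts listed, only 4 were found under those names and tested, 2 in each direction. These were Cct6a, Eif4a1, Eif4a2 and Rack1, and Eif4a2 and Rack1 are also in the list of translation factors.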

How the data were processed

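Bulk RNA from CD4+ T cells was read in 4 CD160 knockout and 5 control libraries. The deposited values are TPM, made by the authors; the build GRCm38 and the tools RSEM 1.2.31, Bowtie2 2.2.9 and Trimmomatic 0.32 come from the submitters' processing notes, with settings not given in the sources used here. RSEM divides reads that fit several genes, so close copies are uncertain. TPM keeps no depth, so no interval or floor from counts is given.

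From these, log2(TPM + 1) was fitted with limma 3.58.1 in R 4.3.3 (lmFit, eBayes with trend) over genes of at least 1 TPM in at least 4 libraries, with and without control replicate 1. P-values were adjusted over all tested genes by the Benjamini-Hochberg method, with a threshold of 0.05. Named members had exact two-sided permutation tests over 126 or 70 splits. Lists, shares and medians were described without a test. The members, lists and rules were chosen with earlier results of these data known.

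Members were named by a rule: the 5 most abundant of each subunit, the 4 with the smallest p in each direction in each fit, the 3 highest and 3 lowest in control replicate 1, those that failed the filter, and those with listed roles or paralogs, with up to 2 genes of each pathway list by smallest p. Rps24, Rps25, Rpl32l, Rpl29, Rpl6, Rps15a and Rps3a1 were singled out after their values were seen. Of 26 names of mitochondrially encoded genes, which include alternative spellings and were listed as a sign of RNA quality, 0 were found. Coordinates and coding lengths are from the GENCODE and RefSeq annotations of GRCm38. All 82 members had words of 38 bases compared with the other annotated genes. Same-numbered libraries did not deviate together. The fit was tested on simulated data. Some genes named by the rule are not reported here.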

Additional observations from a re-analysis of the deposited data

Results flagged for a closer look

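Among the named members, the share of TPM and the subunit balance, 80 sets of 4 or 5 libraries were searched for 1 library whose gap to the nearest other exceeded Dixon's 95% critical value for the range of its group. It was found in 35 sets, 32 of them for control replicate 1. Chance gives about 1 in 20 for sets chosen without regard to their values, but some of these members were named for their level in control replicate 1 or for abundance over libraries that include it, and all are read in the same libraries. The count is therefore a description and is not set against that rate.

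High in control replicate 1 were, in TPM, the large subunit members Rpl41 (31846), Rpl38 (12738), Rplp2 (12232), Rpl36 (12002), Rpl35 (10403), Rplp1 (9997), Rpl34 (7952), Rpl23a (7587), Rpl39 (6029), Rpl5 (3766), Rpl30 (2929), Rpl22 (252.3) and Rpl3l (1.31). Also high were the small subunit members Rps27 (46799), Rps28 (19241), Rps29 (16025), Rps14 (10312), Rps19 (8205), Rps13 (7635), Rps27a (3483) and Rps27l (733.1). Low in it were Rps9 (1811), Rplp0 (1381), Rpl10 (975.2), Rps4x (820.3), Rpsa (811.7), Rps3 (557.7), Rps6 (287.5), Rpl3 (284.7) and Rpl4 (185.9). The share of all TPM was high in that library, at 38.7%, and the ratio of large to small subunit TPM was low, at 1.13.

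In the other libraries, Rps9 was high in knockout replicate 1 at 4053 TPM, where the other knockout libraries had 3315 to 3408 TPM. The share of TPM was also high there, at 23.8%, where the others had 21.7% to 21.8%. Knockout replicate 1 had the lowest summed macrophage markers of its group, 12801 TPM, and whether these go with its share was not tested. Rpl10l was listed at 0.08 TPM in control replicate 5 and at 0 in the other controls.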

How the results depend on the processing

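The count of members past the adjusted threshold was 0 in all 31 settings run, which changed the pseudocount, filter, scaling, variance estimate, block or libraries. Of 986 single-gene values under alternatives, 944 kept their direction and side of the threshold, 42 changed direction, and 0 gained or lost a call. The lowest adjusted p of a named member in any of them was 0.0664, for Rps4l without control replicates 1 and 2. Settings that leave out a second library beside control replicate 1, take the members out of the total in the 8 libraries, or drop Rpl32l and Rps4l were chosen after seeing the data.

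The median member difference was -0.17 and became -0.78 with median-of-ratios scaling. Relative to all genes it was -0.62, and became -0.78 with a pseudocount of 0.1, -0.42 with a pseudocount of 5, -0.36 with no filter, -0.80 with median-of-ratios scaling, -0.10 with quantile normalization and -0.80 with the replicate block. Leaving out 1 library moved it from -0.80 without control replicate 5 to -0.054 without control replicate 1. In the 8 libraries it was -0.054, and -0.17 with the replicate block, and leaving out 1 more library gave -0.12 without knockout replicate 1, -0.11 without control replicate 3, -0.11 without control replicate 5, -0.016 without knockout replicate 2 and 0.002 without control replicate 2. With the replicate block, libraries without a same-numbered partner do not enter the estimate. The cause of the other shifts was not tested.

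The labels do not say whether the replicate numbers pair the samples. In the 9 libraries, deviations of same-numbered libraries from their group means had correlations of -0.017, -0.093, -0.137 and -0.089. Pairs with other numbers ran from -0.19 to 0.195. Without control replicate 1 the same-numbered pairs had -0.207, -0.151 and -0.018. These values cannot settle whether samples were paired. The block takes the group difference within a replicate number, so control replicate 5, which has no knockout partner, does not enter it. Without control replicate 1, knockout replicate 1 has no partner either, which leaves replicates 2 to 4 of each group. A change with the block is therefore also a change of libraries. With the block the number of members called stayed at 0. The median member difference in the 8 libraries was -0.068 and became -0.15 with it. Without control replicate 1 the block turned the differences of Rplp0 (-0.036), Rps9 (-0.0061), Rpl4 (-0.058) and Rpl10 (-0.10).

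With 9 libraries, median-of-ratios scaling turned Rplp0 (-0.26), Rps9 (-0.36), Rps6 (-0.040), Rpl13a (-0.60), Rps3 (-0.38), Rpsa (-0.52), Rpl10 (-0.28) and Rps4x (-0.23). With members taken out of the total Rpl13a had -0.076, and Rps27l in the 8 libraries had -0.0064.

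Leaving out 1 of 9 libraries gave ranges across 0 for Rpl13a (-0.041 to 0.051), Rpl35 (-0.29 to 0.15), Rps27l (-0.34 to 0.018), Rps3 (-0.065 to 0.31), Rps4x (-0.080 to 0.51), Rps6 (-0.0051 to 0.72) and Rpsa (-0.12 to 0.21). Control replicate 1 was the library whose loss turned each, and for Rpl13a and Rpsa knockout replicate 1 did too. Leaving out 1 of the 8 gave such ranges for Rpl10 (-0.058 to 0.090), Rpl4 (-0.057 to 0.10), Rpl41 (-0.075 to 0.036), Rplp0 (-0.056 to 0.17), Rps19 (-0.049 to 0.030), Rps27l (-0.044 to 0.089), Rps29 (-0.11 to 0.053) and Rps6 (-0.046 to 0.030).

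TPM without counts sets no limit of detection, and close copies limit the many members that share words with other genes.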
